A study of Mus musculus with 4 samples.

Results

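The miR-29 family (mmu-miR-29a, mmu-miR-29b and mmu-miR-29c) and the family of miR-148 and miR-152 (mmu-miR-148a, mmu-miR-148b and mmu-miR-152) are known for repressing the DNA methyltransferases (DNMTs). Their members were found by name, as the rows of the deposited table that name one of these 6 miRNAs. They made up 6 of the 566 mouse miRNAs measured. The levels were measured in mouse embryonic stem cells (ESCs) of the R1 line, either wild type (WT, 2 samples) or with the 3 genes Dnmt1, Dnmt3a and Dnmt3b knocked out (TKO, 2 samples). The labels state that all 4 samples were differentiated for 4 days before RNA isolation, after growth on gelatin in serum with leukemia inhibitory factor. Both came from an earlier study, and the labels name 1 line per genotype, so that another difference between the lines cannot be told apart from the knockout.

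A miRNA is a short RNA that guides an Argonaute protein to mRNAs, mostly through bases 2 to 8 of its own sequence, the seed, and lowers the output of the mRNAs that it pairs with. miR-29 is known to target the transcripts of Dnmt3a and Dnmt3b, the enzymes that set methylation on unmethylated DNA, and also collagen and other matrix transcripts. miR-148 and miR-152 are known to target the transcript of Dnmt1, the enzyme that copies methylation onto new strands after replication, and miR-148 also that of Dnmt3b. The families therefore sit on the regulatory path to the very enzymes that the TKO cells lack. The assay measured miRNAs only, so that neither the DNMT transcripts nor the knockout itself could be checked in these values.

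The mature sequences are shown because the members of each family share a seed and differ by few other bases, so that a level of one member has to be read beside those of its relatives. The sequences were taken from RefSeq (GRCm38.p6), in which all 6 names were matched through the 3′ arm of the precursor, the arm to which the older names without an arm refer. Capitals mark the seed.
mmu-miR-29a: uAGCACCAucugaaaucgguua
mmu-miR-29b: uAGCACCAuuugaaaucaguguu
mmu-miR-29c: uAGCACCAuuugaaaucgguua
mmu-miR-148a: uCAGUGCAcuacagaacuuugu
mmu-miR-148b: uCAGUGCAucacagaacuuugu
mmu-miR-152: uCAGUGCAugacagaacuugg

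Of the 1679 mature mouse miRNAs in the RefSeq table, the miR-29 seed AGCACCA was held by 3 and the miR-148 seed CAGUGCA by 3, and these were the members themselves. Counted from 1 at the 5′ end, miR-29a and miR-29c differed at 1 of 22 positions, by C10U (miR-29a first). From miR-29b to miR-29c the differences were A18G, G21U and U22A over 22 positions. miR-148a and miR-148b differed by C9U and U10C, and miR-148b and miR-152 by C10G and U20G. How well the probes tell such close relatives apart was not tested, and no level of one probe was tested against that of another.

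The 6 mature miRNAs come from 7 precursors, since the identical miR-29b is made from Mir29b-1 and Mir29b-2. Mir29a (chr6:31062660-31062747) and Mir29b-1 (chr6:31063023-31063093) lie 275 bases apart on the minus strand, outside the span of any other gene in the RefSeq table. Mir29b-2 (chr1:195037040-195037120) and Mir29c (chr1:195037547-195037634) lie 426 bases apart on the plus strand, within the long noncoding RNA gene A330023F24Rik. Mir148a (chr6:51269812-51269910, minus strand) lies within the span of the predicted gene Gm38821. Mir148b (chr15:103285125-103285221) lies within Copz1, and Mir152 (chr11:96850393-96850465) lies within Copz2, 517 bases after the start of that gene. Both are on the strand of their host genes, which encode related subunits of the coat of transport vesicles. Whether the precursors lie in exons or introns was not analysed here.

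The study sorted precursors by the methylation at their edges, into the methylated groups bilateral, upstream and downstream and the unmethylated groups depleted and flat. It defines the flat group as the remaining miRNAs and describes their loci as evenly methylated, so that a flat locus need not be free of methylation. It lists Mir29b-1 and Mir148a as bilateral, Mir29c as upstream, Mir29a as downstream, and Mir29b-2, Mir148b and Mir152 as flat. The probe for miR-29b therefore reads 1 bilateral and 1 flat locus together. DNA methylation is found mostly at CpG dinucleotides, as the study states, and 4 of the hairpins are therefore shown with every CG in capitals. They are those of the 2 miRNAs that rose in TKO cells and of 1 relative of each whose mean was lower.
Mir29c: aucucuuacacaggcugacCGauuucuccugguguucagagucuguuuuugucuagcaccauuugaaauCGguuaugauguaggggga
Mir29a: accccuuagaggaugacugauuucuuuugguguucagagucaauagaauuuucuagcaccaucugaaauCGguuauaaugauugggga
Mir152: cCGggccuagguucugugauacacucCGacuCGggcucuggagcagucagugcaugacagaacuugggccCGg
Mir148b: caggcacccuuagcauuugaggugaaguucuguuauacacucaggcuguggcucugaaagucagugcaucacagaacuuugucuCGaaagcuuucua

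The hairpin of Mir152 held 4 CG, that of Mir29c 2, and those of Mir29a, Mir148a and Mir148b 1 each, while those of Mir29b-1 and Mir29b-2 held 0. Of the 1005 mouse hairpins in the table, 66.5% held at least 1 CG and 39.3% at least 2. These counts describe the hairpin only, and the methylation of these bases was not analysed here.

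Levels are given as normalized counts. The NanoString nCounter assay counts single barcoded miRNA molecules, and the authors scaled the counts of each sample by 1 factor. Over all probes, the counts recovered from the deposited values summed to between 511661 and 613666 per sample. Background was set at the mean plus 2 SD of 33 probes for viral miRNAs, 69.2 normalized counts, and 238 of the 566 mouse miRNAs (42.0%) had a mean above it, all 6 members among them. The miR-290 to miR-295 miRNAs, which are typical of ESCs, had 8 of 11 probes above background. They summed to 332117 to 338120 normalized counts in WT samples and 271498 to 295039 in TKO samples. By the test described below, 0 of the 11 were called. The miR-302 and miR-367 miRNAs, typical of the primed epiblast, had 3 of 5 probes above background. They summed to 349 to 373 in WT samples and 1649 to 2021 in TKO samples. By the same test 4 of the 5 were higher, among them miR-302c, which was below background. The 20 probes that mark neural, muscle, endothelial, blood, mesenchymal or liver cells had a sum of 2845 to 3109 in WT samples and 2685 to 2884 in TKO samples. Of these 20 probes, 10 were above background, none was at 0, none was called higher and 2 were called lower, neural miR-124 (log2 difference -1.84) and lymphocyte miR-150 (-1.18). The sum of the 5 blood probes, which include miR-150, was nevertheless 1277 to 1379 in WT samples and 1449.8 to 1621 in TKO samples, most of it miR-142-3p, whose log2 difference of 0.63 was not called. The part of these shifts in the results below was not tested, and in bulk RNA fewer cells of a type and less RNA per cell cannot be told apart.

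To compare the genotypes, 1 was added to each normalized count and log2 was taken, and the WT mean was subtracted from the TKO mean. These log2 differences were tested with limma, with p-values adjusted by Benjamini-Hochberg over all 566 mouse miRNAs, and a miRNA was called at an adjusted p under 0.05. Of the 6 members, 2 were called higher (miR-29c and miR-152), 0 were called lower and 4 were not called, while 4 had an unadjusted p under 0.05, as had 23.5% of all mouse miRNAs and 36.1% of those above background. Over all mouse miRNAs, 8.48% were called, 4.24% higher and 4.24% lower. This even split of 24 higher and 24 lower became 27 and 17 when samples were scaled by their sum, 33 and 24 by the viral probes and 25 and 14 by the 100 most abundant miRNAs. With the deposited scaling, 19 of the 238 miRNAs above background were called higher and 22 lower, with p-values adjusted over all 566. Both TKO samples lay outside the range of the WT samples for all 6 members. The same held for 53.4% of all mouse miRNAs and for 169 of the 238 above background. A lack of overlap was thus common with 2 samples of each genotype.

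The rise of miR-29c was the largest change in the miR-29 family. Its level was 268 and 261 normalized counts in the WT samples and 636 and 673 in the TKO samples. Both TKO samples were far above both WT samples, and the samples of a genotype were close to each other. The mean rose from 264 ± 4.43 to 655 ± 25.99 (SD, n = 2), which is 2.47-fold. The log2 difference was 1.30 (SE 0.15, 95% interval 0.92 to 1.69, adjusted p = 0.0154 from limma). The recovered counts were 250 and 269 in WT against 644 and 628 in TKO cells. Their Poisson intervals, which cover counting error only, reached at most 303 in WT and started at 580 in TKO cells. Among the 238 miRNAs above background, miR-29c ranked 16th among positive differences, of which there were 67. With any 1 sample left out the difference stayed between 1.26 and 1.35, but the call was lost (adjusted p between 0.0944 and 0.129).

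The level of miR-29a was 277 and 305 normalized counts in WT against 204 and 220.8 in TKO cells. Its values lay below the WT range in both TKO samples, opposite to miR-29c, from which it differs by 1 base. The means were 291.1 ± 19.7 and 212 ± 12.2 (SD, n = 2), a log2 difference of -0.45 (SE 0.15, 95% interval -0.87 to -0.04) that was not called (adjusted p = 0.184 from limma). When only miRNAs above background were tested, miR-29a was called at the same difference (adjusted p = 0.0452 from limma). That setting called 74 of the 238 miRNAs tested. With sum, viral probe and top 100 scaling miR-29a was not called, at differences of -0.32, -0.35 and -0.29.

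miR-29b measured 231 and 225 normalized counts in WT against 215 and 188 in TKO cells. Both TKO values were below both WT values, 1 of them only slightly. The log2 difference was -0.18 (SE 0.16, 95% interval -0.60 to 0.24, adjusted p = 0.567 from limma). This interval holds 0, and its upper end lies below the lower end of the interval of miR-29c. Relative to the median of the miRNAs above background (-0.20), the difference of miR-29b was 0.020.

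**Figure D1:**
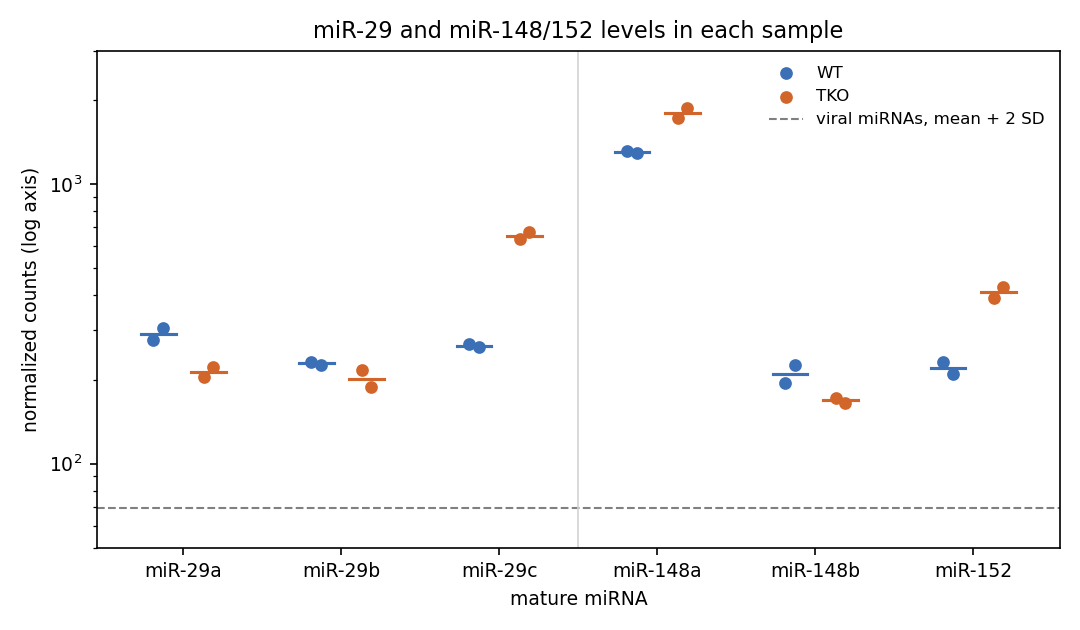
Normalized counts (log axis) of the 6 miRNAs in each sample, WT in blue and TKO in orange, with a bar at the mean of the 2 samples of a genotype and a dashed line at the background of 69.2 normalized counts. miR-29c (264 to 655), miR-152 (220.0 to 411) and miR-148a (1303 to 1797) have higher means in TKO cells, and the other members lower ones.

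miR-152 was the other member that rose. It measured 231 and 209 normalized counts in WT against 392 and 430 in TKO cells. The WT and TKO samples were well apart. The mean went from 220.0 ± 15.8 to 411 ± 26.5 (SD, n = 2), which is 1.86-fold, with a log2 difference of 0.90 (SE 0.16, 95% interval 0.48 to 1.32, adjusted p = 0.0434 from limma). It ranked 21st among the positive differences of the miRNAs above background. The call lies close to the threshold. It was lost with any 1 sample left out, at differences of 0.83 to 0.97 (adjusted p between 0.162 and 0.208), and after subtraction of the viral mean, at a difference of 1.02 (adjusted p = 0.0503).

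miR-148a had the highest probe counts of the 6, with 1309 and 1297 normalized counts in WT against 1729 and 1865 in TKO cells. Both TKO samples were above the WT samples, which were close to each other. The means were 1303 ± 8.58 and 1797 ± 96.7 (SD, n = 2), a log2 difference of 0.46 (SE 0.15, 95% interval 0.070 to 0.86) that was not called (adjusted p = 0.1597 from limma). It was called when the test let the spread depend on the level, with limma's trend (adjusted p = 0.0144) and with voom on the recovered counts (adjusted p = 0.0134), and when only miRNAs above background were tested (adjusted p = 0.0347). These settings called 84, 85 and 74 (of 238) miRNAs, beside 48 in the main comparison. With sum, viral probe and top 100 scaling miR-148a was not called, at differences of 0.60, 0.57 and 0.63.

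miR-148b measured 195 and 225 normalized counts in WT against 172 and 165 in TKO cells. The WT samples were about as far from each other as the lower one was from the lower TKO sample. The log2 difference of -0.31 (SE 0.16, 95% interval -0.74 to 0.11) was not called (adjusted p = 0.321 from limma). The upper end of its interval lies below the lower end of that of miR-152.

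**Figure D2:**
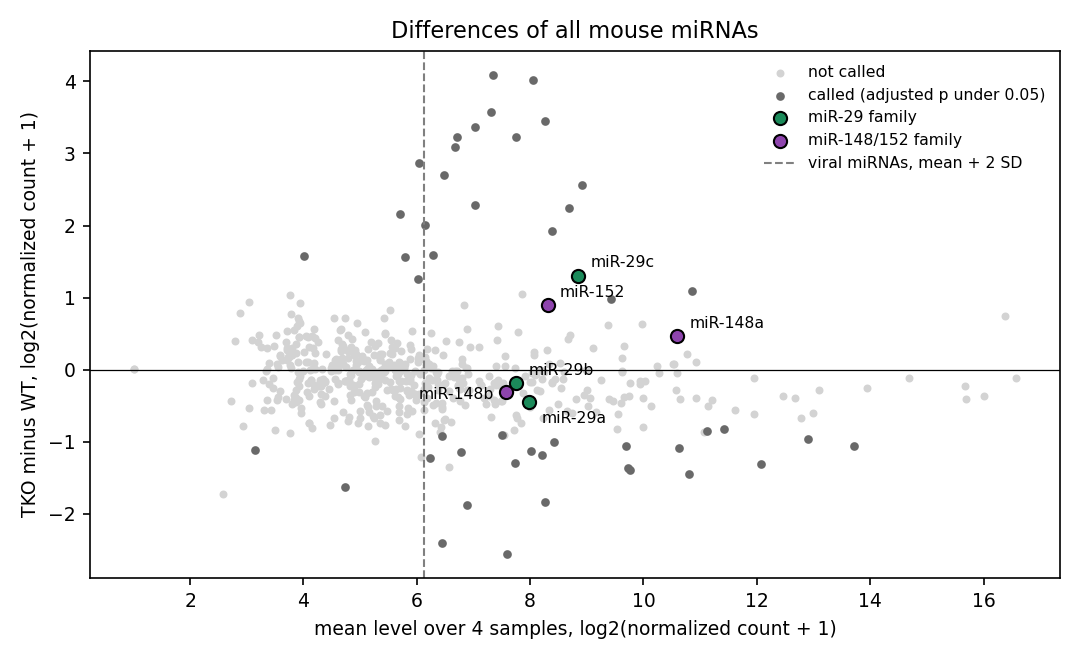
Difference between TKO and WT cells (log2 scale, vertical) against the mean level over the 4 samples (log2 scale, horizontal) for the 566 mouse miRNAs, with called miRNAs in dark grey and the background as a dashed line. miR-29c (1.30) and miR-152 (0.90), both called, and miR-148a (0.46), not called, lie above 0, while miR-29a (-0.45), miR-148b (-0.31) and miR-29b (-0.18), none of them called, lie among the many miRNAs with slightly lower levels.

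The ratio of a pair of members within a sample does not depend on how that sample was scaled. The ratio of miR-29c to miR-29a was 0.965 and 0.857 in the WT samples, and 3.13 and 3.05 in the TKO samples. The ratio of miR-29c to miR-29b was 1.16 in both WT samples and 2.95 and 3.59 in the TKO samples. Relative to its family, miR-29c was thus higher in both TKO samples than in both WT samples, by 1.76 against miR-29a and 1.49 against miR-29b on the log2 scale. By contrast, the ratio of miR-29b to miR-29a was 0.834 and 0.739 in WT against 1.06 and 0.850 in TKO cells, a shift of 0.27.

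In the family of miR-148 and miR-152, the ratio of miR-152 to miR-148b was 1.19 and 0.927 in WT against 2.28 and 2.60 in TKO cells. The ratio of miR-148a to miR-148b was 6.72 and 5.75 in WT against 10.1 and 11.3 in TKO cells. Both ratios were higher in TKO cells, by 1.22 and 0.78 on the log2 scale. The ratio of miR-152 to miR-148a was 0.177 and 0.161 in the WT samples and 0.227 and 0.230 in the TKO samples, a difference of 0.44 on the log2 scale. The genotypes did not overlap in any of the 6 ratios. Each ratio had an exact permutation p of 0.333 (two-sided), the smallest that 2 against 2 samples allow. In each family, however, any ratio follows from the other 2, and every member alone already separated the genotypes. How often ratios of other miRNA pairs separate the genotypes was not counted.

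**Figure D3:**
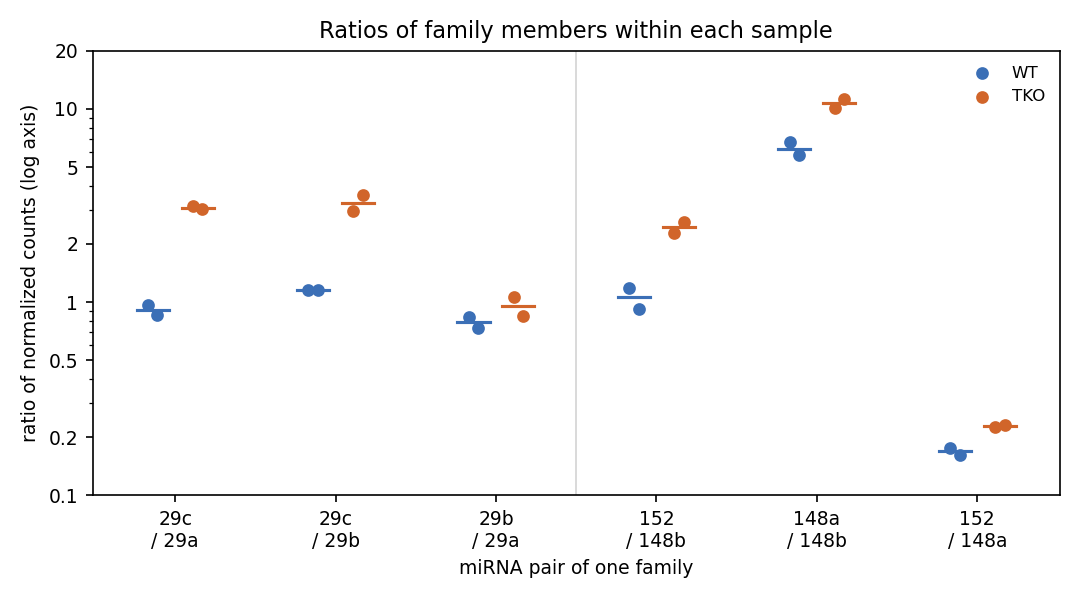
Ratio of the normalized counts (log axis) of a pair of members of the same family in each sample, WT in blue and TKO in orange, with a bar at the mean of the 2 samples. The ratios of miR-29c to miR-29a and to miR-29b have means of 0.911 and 1.16 in WT against 3.09 and 3.27 in TKO cells, and that of miR-29b to miR-29a lies near 1 in both.

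Since the members of a family share the seed, their counts were also added up, with the reservation that probes can count their miRNAs with unequal efficiency. The miR-29 counts summed to 776 and 792 normalized counts in WT against 1056 and 1082 in TKO cells, 1.36-fold higher in mean. miR-29c made up 34.5% and 33.0% of this sum in WT against 60.3% and 62.2% in TKO cells. The share of miR-29a was 35.7% and 38.5% in WT against 19.3% and 20.4% in TKO cells, and that of miR-29b 29.8% and 28.5% against 20.4% and 17.3%. The family was thus counted in nearly equal parts in WT cells, and mostly as miR-29c in TKO cells. The miR-148 and miR-152 counts summed to 1735 and 1731 in WT against 2293 and 2460 in TKO cells, 1.37-fold higher in mean, and miR-148a made up between 74.9% and 75.8% of them in every sample. The sums were not tested, since they rest on the same members.

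As a list, the 6 members had a median log2 difference of 0.14 (3 higher, 3 lower), beside -0.12 over all 566 mouse miRNAs (217 higher, 349 lower) and -0.20 over the 238 above background. The median was -0.18 in the miR-29 family and 0.46 in the family of miR-148 and miR-152, and each family held 1 called member. With 3 members, each of these medians is the value of 1 miRNA, that of miR-29b and that of miR-148a. By the methylation groups of the study, members with 1 precursor stood on both sides in each class. Of the methylated ones miR-29c was higher by the test, miR-148a had a difference of 0.46 and miR-29a of -0.45. Of the flat ones, which the study counts as unmethylated, miR-152 was higher by the test and miR-148b had a difference of -0.31.

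Other miRNAs that have been reported to target a DNMT were examined as a list. It held 11 probes for miR-101a, miR-101b, miR-126, miR-143, miR-145, miR-185, miR-194, miR-221 and miR-342, of which 8 were above background. For miR-126 and miR-342 the list had named the 3p arm only. Matching by name also took in miR-126-5p (log2 difference 0.078) and miR-342-5p (-0.45), which are counted below. limma called none of the 11, also with its trend or with voom, and 2 had an unadjusted p under 0.05, beside 23.5% of all mouse miRNAs. It called 1 of them lower (miR-101a) with viral probe scaling and with the crossed replicate pairing. With viral probe scaling limma gave all 6 family members the same SE (0.30), and so did not weigh the spread of each miRNA. In the main comparison, differences ranged from -0.99 (miR-101a, below background) to 0.28 (miR-126-3p), with a median of -0.32. Of the 11 differences, 9 were below 0, that of miR-143 only just (-0.01). The 3 with the highest WT levels were miR-126-3p (283 and 288 normalized counts in WT, 337 and 355 in TKO), miR-101b (251 and 266 in WT, 233 and 183 in TKO) and miR-145 (240 and 201.1 in WT, 198 and 162 in TKO). Of these 3 only miR-126-3p, an miRNA of endothelial cells, had TKO values above the WT range. miR-126, miR-143 and miR-145 were also counted among the markers of other cell types. A difference between this list and the families was not tested.

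To place the members among the other miRNAs, their log2 levels over the 4 samples were centred, and the nearest of the 232 other miRNAs above background were taken by Euclidean distance. Nearest to miR-29c were miR-22 (distance 0.23), miR-21 (0.33) and miR-132 (0.37), which were called higher with log2 differences of 1.09, 0.99 and 1.59. Nearest to miR-152 were miR-322 (0.19, itself not called), miR-21 (0.20) and miR-22 (0.25), so that miR-21 and miR-22 stood near both called members. miR-29c and miR-152 were 0.41 apart, whereas miR-29c and miR-29a were 1.76 apart. miR-148a had miR-193, miR-136 and miR-2140 as its nearest (0.11 to 0.15). miR-29a was nearest to miR-669o (0.036), miR-2137 and miR-293, miR-29b to miR-540-3p (0.051), the probe for miR-181b and miR-181d, and miR-329, and miR-148b to miR-1935 (0.040), miR-30d and miR-2134. With 4 samples, this measure mostly reflects the difference between the genotypes.

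The direction of each member's difference was the same under all 15 alternative settings, but in most of them it could not have changed. The filter, limma's trend and the pairings leave the difference as it was. With both TKO samples outside the WT range, a changed pseudocount or a left-out sample cannot reverse it. The difference of miR-29c lay between 1.26 and 1.47, that of miR-152 between 0.83 and 1.07 and that of miR-148a between 0.41 and 0.63. The difference of miR-29a lay between -0.52 and -0.29, that of miR-148b between -0.42 and -0.15, and that of miR-29b between -0.28 and -0.015, the last close to 0.

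**Figure D4:**
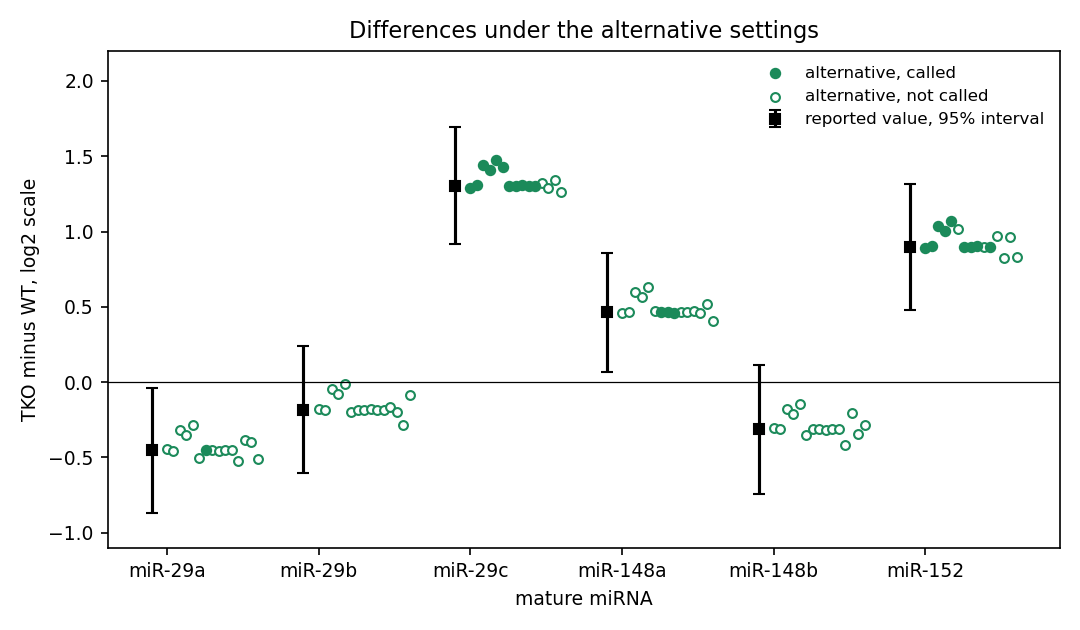
Difference between TKO and WT cells (log2 scale) of each member, with the reported value and its 95% interval as a black square and the 15 alternative settings as circles, filled where limma called the miRNA. miR-29c is called in 11 and miR-152 in 9 of the 15, miR-148a in 3 and miR-29a in 1, and no member's value crosses 0. The filter, trend, pairing, pseudocount and left-out samples could not have moved a value across 0. With viral probe scaling, 1 of the settings, limma gave all members the same SE (0.30).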

How the data were processed

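Mature miRNAs were profiled with the NanoString nCounter assay in 2 WT and 2 TKO samples. The authors normalized the counts with nSolver and deposited log2 values. The software version, the handling of background and the scaling probes are not given in the sources used here. The labels name a miRNeasy kit for the RNA. The deposited log2 values were turned back to normalized counts. Dividing by 1 factor per sample (0.971 to 1.07) returned whole counts (tolerance 0.05) for 100% of values. A pseudocount of 1 was added, log2 was taken and the genotypes were compared with limma (lmFit, eBayes) over 566 mouse miRNAs, without a replicate block. The design text calls the replicates biological without saying more. The rule for named miRNAs covered all members, called or abundant miRNAs of the DNMT-linked list, and the 3 nearest miRNAs. Members and lists were chosen with earlier results of these data known. Alternatives covered the pseudocount, scaling, background, filter, test, pairing and each sample left out. limma was tested on simulated data. The fits ran in R 4.3.3 (limma 3.58.1), the rest in Python 3.11.15 with pandas 2.3.3, numpy 2.4.6 and scipy 1.17.1, and figures were drawn with matplotlib 3.10.9. Precursors and sequences came from RefSeq (GRCm38.p6), and the methylation groups from the study's list.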

Additional observations from a re-analysis of the deposited data

How the results depend on the processing

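Of the 90 single values that the alternatives gave for the 6 members, 0 changed direction and 76 also kept their side of the threshold. The filter to miRNAs above background, limma's trend, the replicate block and the crossed pairing could change only the call. They leave the difference itself as it was, so that their directions were fixed in advance. Both TKO samples lay outside the WT range for all 6 members. A changed pseudocount or a left-out sample could therefore not reverse a direction either. The number of members called, 2, became 4 with only miRNAs above background (miR-29a, miR-29c, miR-148a and miR-152) and 1 after subtraction of the viral mean (miR-29c). It ranged from 0 to 0 with each replicate left out, when limma called between 0 and 14 of all 566 miRNAs, so that a lost call there does not show a smaller difference. The lone sample of a genotype was then assumed to vary like the other genotype. Over all miRNAs, the 48 calls became 74 (of 238) with only miRNAs above background, 84 with limma's trend, 85 with voom and 32 after background subtraction. The median difference of the members, 0.14, moved to 0.27 with sum scaling, 0.24 with viral probe scaling and 0.31 with top 100 scaling. The median of all mouse miRNAs moved alongside from -0.12 to 0.0089, -0.022 and 0.042. Relative to the median of all mouse miRNAs, miR-29c differed by 1.43, miR-152 by 1.02, miR-148a by 0.58, miR-29a by -0.33, miR-148b by -0.19 and miR-29b by -0.060.

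The labels number the replicates of both genotypes 1 and 2 without saying that a number marks a shared batch. Deviations of same-numbered samples correlated at -0.094 over the mouse miRNAs and -0.24 over those above background. With a replicate block limma called 1 member (miR-29c, with miR-152 at an adjusted p of 0.118) and 30 of all miRNAs. With the crossed pairing, chosen after seeing the data, it called 2 members and 64 of all miRNAs. With 2 samples of each genotype, precision is limited by their number. The lowest recovered count of a member was 154 (miR-148b in a TKO sample), and the part of counting error in the spread was not tested.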
